A study of Mus musculus with 4 samples.

Results

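The miR-193 and miR-365 miRNAs come from a pair of mouse gene clusters, and their reads are described here in basal and luminal cells of the prostate. The members were taken by name: every arm and copy of miR-193a, miR-193b and miR-365 in the deposited read lists. This gave 6 members of 816 miRNA names. The group was chosen by a measured value, since the basal to luminal difference of miR-193b-3p was known when it was picked. The level differences below are therefore given as a description. A test over all miRNAs is reported further on, and its calls are not used as support for the members.

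Small RNAs were sequenced from total RNA of prostate cells, and the mice were wild-type, C57Bl/6, male and 10 weeks old. After collagenase and trypsin digestion, cells were sorted by FACS for the Sca-1(+), lin(-) phenotype, with CD49f(high) cells collected as basal and CD49f(low) cells as luminal. There were 2 basal and 2 luminal libraries, and whether the libraries of a cell type came from separate animals is not stated in the labels, so the spread between them may be technical. All 4 libraries share strain, sex, age, genotype, Sca-1 and lineage gates, so luminal means only the CD49f(low) part of this gate.

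A miRNA precursor is a short hairpin that is cut into a 5p and a 3p arm, of which usually the more abundant guides repression of target mRNAs. Targets are recognised mainly through the seed, bases 2 to 8 of the arm. miR-193a and miR-193b are paralogs with the same 3p seed, and each lies beside a copy of miR-365. The miR-193b and miR-365 cluster has been studied in brown fat, where a link to adipocyte differentiation has been reported. In human prostate cancer cells miR-193b is known as a growth-restraining miRNA that can be silenced by DNA methylation.

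The 6 listed arms all matched a RefSeq mature miRNA (GRCm38.p6). They are shown 5′ to 3′ with the seed in capitals, because the results turn on which paralog and which arm carried the reads.
mmu-miR-193a-3p: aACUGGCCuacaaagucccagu
mmu-miR-193b-3p: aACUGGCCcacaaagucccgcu
mmu-miR-365-3p: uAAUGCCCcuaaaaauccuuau
mmu-miR-193a-5p: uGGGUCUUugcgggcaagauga
mmu-miR-193b-5p: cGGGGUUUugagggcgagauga
mmu-miR-365-2-5p: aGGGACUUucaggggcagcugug

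Among 1679 mature mouse miRNAs of the reference, only miR-193a-3p and miR-193b-3p have the seed ACUGGCC, and miR-365-3p was alone with AAUGCCC. Counted from the 5′ end of miR-193a-3p, the 3p arms of the paralogs differ at 3 of 22 positions, U9C, A20G and G21C, all outside the seed. The 5p arms of the paralogs differ at 5 of 22 positions (U1C, U5G, C6U, C11A and A16G), which include seed bases. The sources used here do not give the number of mismatches that the read search allowed. A small exchange of reads between miR-193a-3p and miR-193b-3p cannot be told apart from expression.

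Each precursor has both arms annotated. They are shown with the arms in capitals and the loop and flanks in lower case, since the paralogs differed in how the reads fell on the arms. Mir193a lies on the plus strand at chr11:79711969-79712034 and Mir193b on the plus strand at chr16:13449523-13449601 (GRCm38).
Mir193a: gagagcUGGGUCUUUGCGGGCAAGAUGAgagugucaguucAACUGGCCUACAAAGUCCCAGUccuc
Mir193b: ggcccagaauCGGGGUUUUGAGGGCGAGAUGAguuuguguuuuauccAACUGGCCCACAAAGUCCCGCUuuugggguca

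Mir365-2 (chr11:79726400-79726511) follows Mir193a on the same strand after 14365 bases, and Mir365-1 (chr16:13453840-13453926) follows Mir193b after 4238 bases. On GENCODE M21, Mir193b and Mir365-1 lie within an intron of Gm15738, an antisense gene on the other strand, and Mir193a and Mir365-2 lie in no other annotated gene. Both miR-365 copies encode the same 3p arm, so reads of miR-365-3p cannot be split between the clusters. The 5p arms do differ, and only that of Mir365-2 was listed, which leaves miR-193a and miR-193b as the readouts of the chromosome 11 and chromosome 16 clusters.

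**Figure D1:**
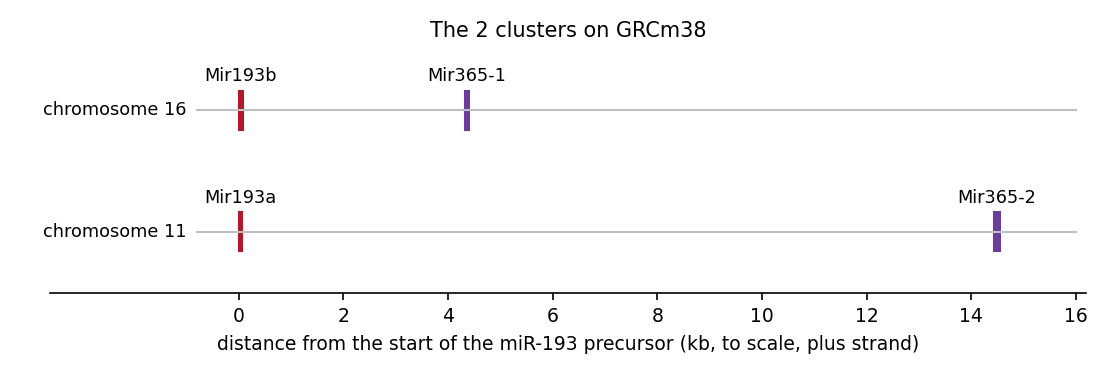
Map of the clusters on chromosomes 16 and 11, with distance in kb from the start of the miR-193 precursor on the horizontal axis, to scale. Boxes are precursors, red for miR-193 and purple for miR-365. The miR-365 precursor follows after 4238 bases on chromosome 16 and after 14365 bases on chromosome 11.

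The basal libraries held 1855718 and 3278294 miRNA reads for replicates 1 and 2, the luminal libraries 1583830 and 1501898. Levels are given as RPM, reads per 1000000 after TMM scaling of the totals, edgeR's trimmed mean method, where 1 read is worth 0.298 to 0.374 RPM in basal and 0.765 to 0.813 RPM in luminal libraries. miR-200c-3p took 22.3% to 46.9% of the miRNA reads of basal and 68.5% to 71.6% of those of luminal libraries, which pulls on the totals. Together the members took 884 and 3585 reads of the basal libraries, and 2167 and 5295 reads of the luminal libraries. In bulk RNA of sorted cells, fewer cells with a miRNA and less of it per cell cannot be told apart.

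miR-193b-3p, the arm of the Mir193b precursor with the most reads, was lower in basal than in luminal cells. Its reads numbered 266 and 515 for basal replicates 1 and 2, and 1270 and 3257 for luminal replicates 1 and 2. As levels these were 99.4 and 153 RPM in the basal libraries, against 972 and 2649 RPM in the luminal libraries. Every basal library lay below every luminal library, and the luminal libraries differed from each other more than the basal ones. The mean was 126.4 ± 38.2 RPM in basal and 1810 ± 1186 RPM in luminal libraries (SD, n = 2 each). The log2 fold change, basal over luminal, was -3.84 with a standard error of 0.71, or 14.3-fold lower in basal cells. Its size rests in part on luminal replicate 2, without which it was -2.90.

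miR-193b-5p, the other arm of the same precursor, had few reads and the same order of groups. Basal replicates 1 and 2 gave 0 and 10 reads, and luminal replicates 1 and 2 gave 22 and 53 reads. Its levels were at most 1.12 RPM (3 reads, the limit that a count of 0 allows) and 2.98 RPM in the basal libraries, against 16.8 and 43.1 RPM in the luminal libraries. Its log2 fold change of -4.24 carried a standard error of 1.72. This arm passed the filter on low counts only through the luminal libraries, so a difference of this sign follows from its having passed.

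The paralog on chromosome 11 went the other way in both arms. miR-193a-3p, which shares the seed of miR-193b-3p, was read 140 and 200 times in the basal libraries (replicates 1 and 2), and 22 and 31 times in the luminal libraries. These are 52.3 and 59.6 RPM in the basal libraries, against 16.8 and 25.2 RPM in the luminal libraries. The groups did not overlap, with means of 56.0 ± 5.13 RPM in basal and 21.0 ± 5.92 RPM in luminal libraries (SD, n = 2 each). The basal over luminal difference was 1.41 on the log2 scale (standard error 1.01).

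miR-193a-5p, the other arm of Mir193a, followed miR-193a-3p. It was read 72 and 94 times in the basal libraries and 17 and 8 times in the luminal libraries, or 26.9 and 28.0 RPM in basal against 13.0 and 6.51 RPM in luminal libraries. The basal libraries were close to each other and both above the luminal ones. On the log2 scale it differed by 1.49 (standard error 1.27), so for both arms of miR-193a the difference was under 2 standard errors of the fit.

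miR-365-3p, which either cluster can supply, overlapped between the cell types. Basal replicates 1 and 2 gave 401 and 2766 reads, and luminal replicates 1 and 2 gave 836 and 1946 reads. As levels these were 149.9 and 824 RPM in the basal libraries, against 640 and 1583 RPM in the luminal libraries. Basal replicate 2 lay above luminal replicate 1, and the means of 487 ± 477 RPM in basal and 1111 ± 667 RPM in luminal libraries (SD, n = 2 each) had spreads of the size of the difference. Basal over luminal, this is a log2 fold change of -1.19 (standard error 0.74). It stood at -2.88 without basal replicate 2 and at -0.46 without basal replicate 1, and at -0.37 without luminal replicate 2, so its size rests on single libraries.

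miR-365-2-5p, the arm that only the chromosome 11 cluster encodes, lay near the detection limit. Basal replicates 1 and 2 gave 5 and 0 reads, and both luminal libraries gave 0. The 5 reads are 1.87 RPM, while 0 reads allow up to 0.894 RPM in basal replicate 2 and up to 2.30 and 2.44 RPM in luminal replicates 1 and 2. A difference of this arm between the cell types was not detectable at this depth.

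**Figure D2:**
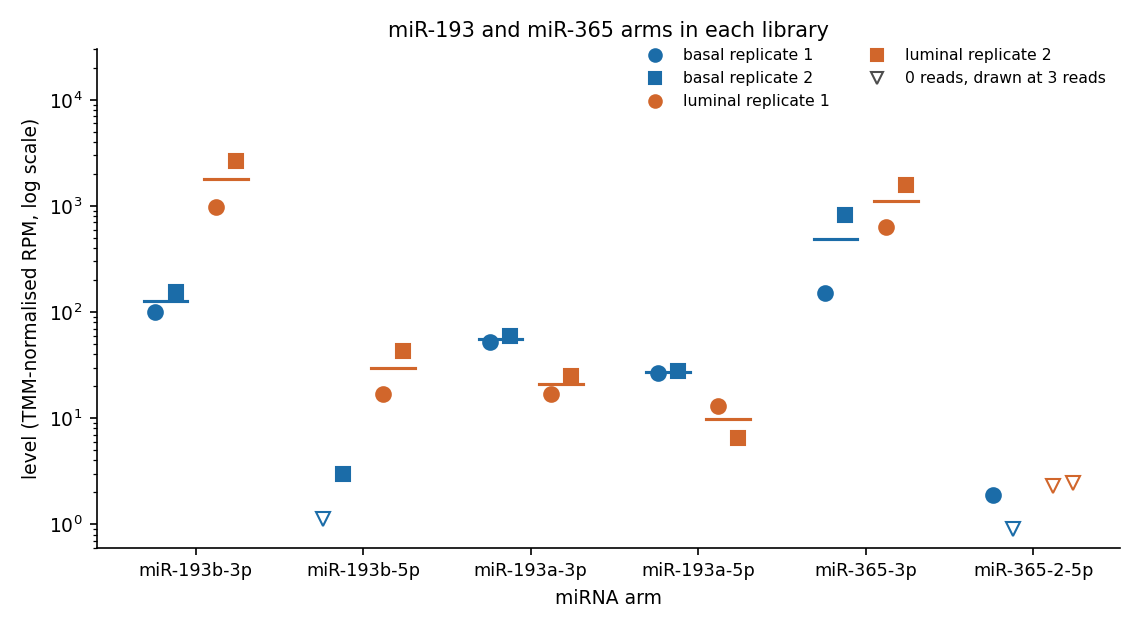
Level of each arm in each library, as TMM-normalised RPM on a log scale, with basal libraries in blue left of luminal libraries in orange. Bars are means of 2 libraries and open triangles mark 0 reads, drawn at the level of 3 reads. Both miR-193b arms lie lower in basal libraries, both miR-193a arms lie higher there, and miR-365-3p overlaps.

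The 6 members were set against the whole table with edgeR's quasi-likelihood test, which left 345 miRNAs after its filter, 5 of them members. miR-365-2-5p did not pass the filter. Of the 5, 1 had a Benjamini-Hochberg adjusted p under 0.05, miR-193b-3p, which was lower in basal cells. Over all tested miRNAs, 4.35% passed in either direction and 3.77% were lower in basal and higher in luminal cells. Since miR-193b-3p was picked for this contrast, nothing is read from the count. Without overlap between the groups, 2 members were higher in basal cells, where 27.2% of all tested miRNAs were, and 2 were higher in luminal cells, where 24.3% were. The median log2 fold change was -1.19 over the 5 members and -0.0053 over all 345. With the miR-193b arms below and the miR-193a arms above it, the members' median is the value of miR-365-3p alone. It describes no shift of the group.

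**Figure D3:**
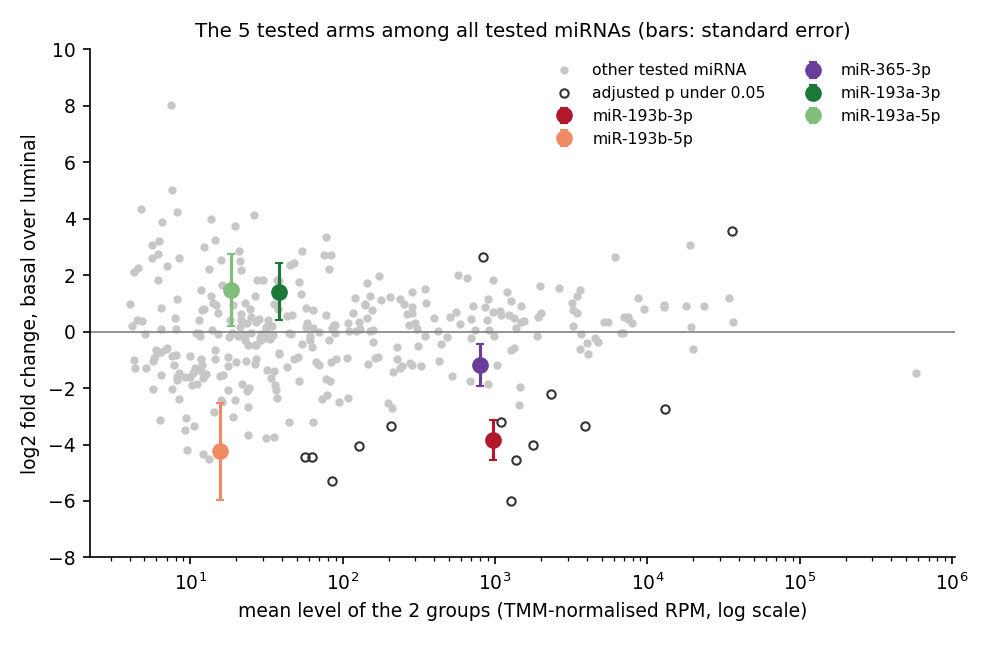
Log2 fold change, basal over luminal, against the mean level of the groups in RPM on a log scale, for all 345 tested miRNAs. Coloured points are the 5 tested members with standard errors as bars, open circles are miRNAs with an adjusted p under 0.05. miR-193b-3p at -3.84 and miR-193b-5p at -4.24 lie low, the miR-193a arms lie at 1.41 and 1.49.

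Ratios of reads within a library need no scaling between libraries. The ratio of the paralogs restates their opposite differences given above. Since miR-193b-3p was picked for its difference, the ratio adds no separate support. For each read of miR-193a-3p there were 1.90 and 2.58 reads of miR-193b-3p in basal replicates 1 and 2, against 57.7 and 105 in luminal replicates 1 and 2. The ratio was 35.2-fold lower in basal cells (geometric means), and the libraries of each cell type lay within 2-fold of each other. Among reads with the shared 3p seed, miR-193a-3p made up 34.5% (exact Clopper-Pearson 95% interval 29.9 to 39.3) and 28.0% (24.7 to 31.4) in basal replicates 1 and 2. In luminal replicates 1 and 2 it made up 1.70% (1.07 to 2.57) and 0.943% (0.641 to 1.34). These intervals cover counting error only, since reads without molecular identifiers are not independent molecules.

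With TMM scaling, the paralogs together gave the ACUGGCC seed a lower level in basal cells. Their summed level was 152 and 213 RPM in basal replicates 1 and 2, against 989 and 2674 RPM in luminal replicates 1 and 2. In basal libraries miR-193a-3p was a visible part of this sum, and in luminal libraries nearly all of it was miR-193b-3p. The sum thus largely restates the difference for which miR-193b-3p was picked.

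miR-365-3p stood above miR-193b-3p in both basal libraries and below it in both luminal libraries. The number of miR-193b-3p reads for each miR-365-3p read was 0.663 and 0.186 in basal replicates 1 and 2, against 1.52 and 1.67 in luminal replicates 1 and 2. The basal libraries were far apart in this ratio and the luminal libraries close. Against the sum of both miR-193 3p arms, miR-365-3p had 0.988 and 3.87 reads for each read in basal replicates 1 and 2, against 0.647 and 0.592 in luminal replicates 1 and 2. Read numbers of different small RNAs also depend on how well each sequence is ligated and amplified, so a ratio compares libraries and not amounts of the miRNAs. Both ratios here contain miR-193b-3p, which was picked for its difference, so they add no separate support.

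Reads fell unequally on the arms of the precursors, and the paralogs differed in this in every library. The arms are different sequences, so ligation and amplification can also shape these shares. They describe reads and not amounts of the arms, and their intervals cover counting error only. Of the reads of Mir193a, the 5p arm had 34.0% (exact Clopper-Pearson 95% interval 27.6 to 40.8) and 32.0% (26.7 to 37.6) in basal replicates 1 and 2. In luminal replicates 1 and 2 it had 43.6% (27.8 to 60.4) and 20.5% (9.30 to 36.5), each of only 39 reads. The intervals of the cell types overlapped.

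Of the reads of Mir193b, the 5p arm had 0 of 266 reads in basal replicate 1, for an exact upper limit of 1.38%, and 1.90% (exact 95% interval 0.917 to 3.47) in basal replicate 2. It had 1.70% (1.07 to 2.57) and 1.60% (1.20 to 2.09) in luminal replicates 1 and 2. The Mir193a shares lay above the Mir193b shares in all 4 libraries, with no overlap of their intervals.

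**Figure D4:**
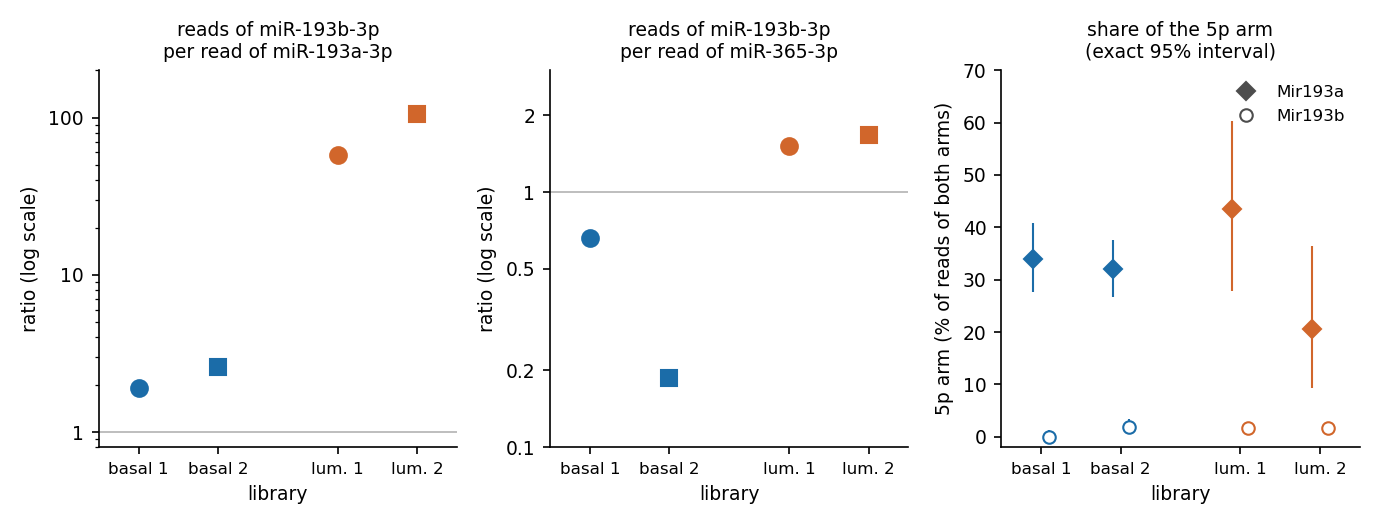
Ratios of reads within each library on log scales (left and middle) and the share of the 5p arm in percent with exact 95% intervals (right), with basal libraries in blue left of luminal libraries in orange. miR-193b-3p reads for each miR-193a-3p read stand at 1.90 and 2.58 in basal and at 57.7 and 105 in luminal libraries. The 5p share of Mir193b stays under 2% in every library, that of Mir193a lies between 20.5% and 43.6%.

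Profiles over the 4 libraries were compared by the root mean square distance between log2 RPM values centred on each miRNA's mean. miR-193a-3p and miR-193a-5p were 0.521 apart, and miR-193a-3p and miR-193b-3p were 2.57 apart. The distance of 0.522 between miR-193b-3p and miR-193b-5p follows in part from the filter that the 5p arm passed only through luminal libraries, and from the prior count that stands for its 0 reads in basal replicate 1. miR-365-3p lay 1.27 from miR-193b-3p and 1.68 from miR-193a-3p. The 5 of 340 other tested miRNAs nearest to miR-193b-3p were miR-136-5p of the imprinted Dlk1-Dio3 cluster (0.210), miR-2137 (0.332), miR-501-3p (0.467), miR-375-3p, known from secretory and neuroendocrine cells (0.469), and miR-145a-3p, an arm of a smooth muscle miRNA (0.498), where the median distance was 2.10. Of these, miR-136-5p rests on 1 and 6 reads in basal and 19 and 39 in luminal replicates 1 and 2. Like miR-193b-5p, it passed the filter only through the luminal libraries. The 5 were chosen by nearness to an arm picked as lower in basal cells, so differing in the same direction follows from the choice. Their distances under the median follow from it too.

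The miRNAs nearest to miR-365-3p were miR-1930-5p (0.118), miR-8117 (0.249), miR-142-5p, a leukocyte miRNA (0.286), miR-340-5p (0.309) and miR-664-5p (0.366), with a median of 1.43 over the 340. Like miR-365-3p, each of them was lowest in basal replicate 1, which follows from choosing them by nearness to the miR-365-3p profile. The reads of miR-1930-5p numbered 2 and 27 for basal, and 10 and 21 for luminal replicates 1 and 2. Those of miR-8117, miR-340-5p and miR-664-5p were likewise few, with 1 to 5 in basal replicate 1 and at most 44 in any library.

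Other miRNAs known from brown or beige fat lay on both sides of 0. Of 19 listed, 18 were tested and 0 passed in edgeR, with 4 at an unadjusted p under 0.05, while DESeq2 called 1, miR-196a-5p. Over all 345 tested miRNAs, 15 passed in edgeR, 55 had an unadjusted p under 0.05 there, and DESeq2 called 33. The median log2 fold change was -0.52 over 11 that promote the brown fat state and 1.23 over 7 that restrain it, beside -0.0053 over all tested miRNAs. Both lists were mixed, with 5 promoting members above 0 and 6 below, and 5 restraining members above 0 and 2 below. Of those named next, miR-455-3p and miR-196a-5p were named after their values were seen. miR-26a-5p, the promoting member with the most reads, had 12116 and 21668 RPM in basal replicates 1 and 2, against 11845 and 5859 RPM in luminal replicates 1 and 2. miR-455-3p, a promoting member, had 507 and 687 RPM in basal replicates 1 and 2, against 3712 and 926 RPM in luminal replicates 1 and 2. miR-196a-5p, which promotes beige fat in mice, had 59.8 and 59.3 RPM in basal against 474 and 207 RPM in luminal replicates 1 and 2. miR-27b-3p, a restraining member, had 5380 and 5229 RPM in basal against 3202 and 641 RPM in luminal replicates 1 and 2.

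Some markers of the sorted cells and of other cell types differed in the same contrast, and their part in the miR-193 values was not tested. Summed levels of the 6 basal epithelial markers were 55609 to 85264 RPM in basal and 6734 to 8313 RPM in luminal libraries, and 1 of 6 was called, miR-205-5p, higher in basal cells. Nearly all of the basal sum was miR-205-5p, at 51995 and 80966 RPM in basal replicates 1 and 2. Of the 6, 4 had log2 fold changes above 0 and 2 below, and miR-203-3p had 139 and 211 RPM in basal against 339 and 417 RPM in luminal replicates 1 and 2. Both luminal epithelial markers, miR-148a-3p and miR-375-3p, were called lower in basal cells, with sums of 3103 to 4146 RPM in basal and 23219 to 26358 RPM in luminal libraries. Both smooth muscle markers, miR-143-3p and miR-145a-5p, were likewise called lower in basal cells, with sums of 1054 to 1971 RPM in basal and 9481 to 12384 RPM in luminal libraries. Of 3 tested neural markers, 1 was called lower in basal cells, miR-9-5p, with sums of 25.4 to 53.6 RPM in basal and 199 to 336 RPM in luminal libraries and miR-124-3p at 0 in some. The median log2 fold changes of these lists were 1.52 for basal epithelium, -2.98 for luminal epithelium, -2.79 for smooth muscle and -2.12 for neural markers, beside -0.0053 over all tested miRNAs. Over all 345 tested miRNAs, 15 were called.

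The endothelial miRNA miR-126a, both arms together, stood at 34582 to 55099 RPM in basal and 967 to 10587 RPM in luminal libraries. The sums of 3 fibroblast markers were 572 to 621 RPM in basal and 1134 to 1171 RPM in luminal libraries, and those of 5 leukocyte markers were 4042 to 7878 RPM in basal and 3573 to 4395 RPM in luminal libraries. miR-150-5p carried most of the leukocyte sum in basal libraries, at 3435 and 6294 RPM against 2832 and 1181 RPM in luminal replicates 1 and 2, and the other 4 leukocyte markers had log2 fold changes below 0. Erythroid markers summed to 170 to 3021 RPM in basal and 207 to 647 RPM in luminal libraries with miR-486a-5p not listed, and striated muscle markers to 19.4 to 65.5 RPM in basal and 13.0 to 13.8 RPM in luminal libraries, with miR-1a-3p, miR-206-3p and miR-499-5p at 0 in some libraries. The miR-200 family, dominated by miR-200c-3p, summed to 188306 to 479277 RPM in basal and 862615 to 915592 RPM in luminal libraries. For each read of Cali_12, a listed sequence of unstated nature, miR-200c-3p had 1.565 and 1.541 reads in basal replicates 1 and 2. It had 1.622 and 1.496 in luminal replicates 1 and 2, so this ratio hardly varied. Whether the miR-200c-3p reads reflect the cells or follow the Cali_12 reads was not tested. In these 6 lists 0 of 18 tested members passed in edgeR, with 3 at an unadjusted p under 0.05, and DESeq2 called 2, both arms of miR-126a. The same counts over all 345 tested miRNAs were 15, 55 and 33. Median log2 fold changes of the 6 lists were 2.85 for endothelium, -1.02 for fibroblasts, -1.69 for leukocytes, 2.99 for striated muscle, -0.38 for the miR-200 family and 1.84 for the only erythroid marker tested, miR-451a.

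Scaling moved the values of the members. With library totals alone, the log2 fold change of miR-193b-3p was -3.30 and it no longer passed (edgeR, Benjamini-Hochberg), and with scaling to the Cali reads, listed sequences of unstated nature, it was -2.04 and did not pass. Scaled to the Cali reads, miR-365-3p changed sign to 0.04 and the miR-193a arms stood at 3.37 and 3.51. For each 1000000 Cali reads there were 345 and 134 miR-193b-3p reads in basal replicates 1 and 2, against 485 and 1479 in luminal replicates 1 and 2, still without overlap. On this scale miR-193a-3p stood at 182 and 52.0 in basal, against 8.41 and 14.1 in luminal replicates 1 and 2. With both paralogs summed, basal replicate 1 then lay above luminal replicate 1, so the groups overlapped for the ACUGGCC seed.

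**Figure D5:**
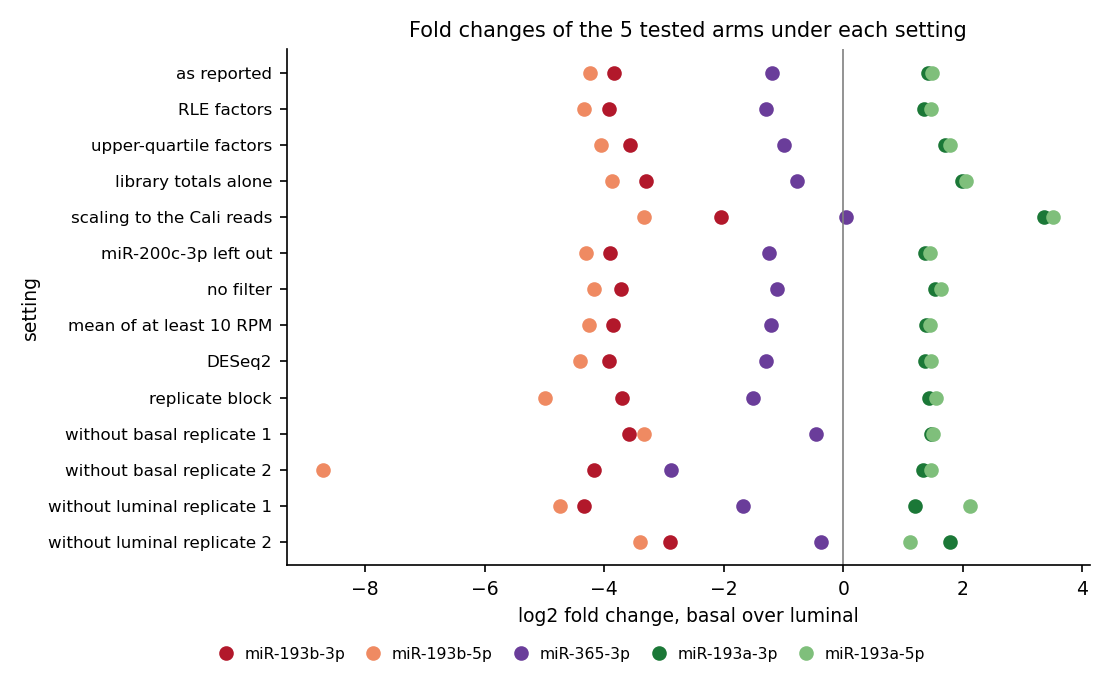
Log2 fold change, basal over luminal, of the 5 tested members (horizontal axis) under each setting (rows). The miR-193b arms stay below 0 and the miR-193a arms above 0 in every row drawn, while miR-365-3p reaches 0.04 with scaling to the Cali reads.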

How the data were processed

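The table was used as deposited by the authors: whole-number read counts for each name and library, not normalized, per the file headers. The file name points to BLAST. The sources used here do not give its version, the miRNA release, the mismatches allowed or the treatment of reads with several matches. A name not listed in a library was taken as 0 reads. The unnamed value that ends each list equals the sum of its reads and was left out, and so were the Cali and adaptor names, which took 29.5% to 62.4% of the listed reads.

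Counts were tested in edgeR 4.0.16 (R 4.3.3) over all miRNAs: filterByExpr (10 reads, total 15), TMM, a quasi-likelihood fit on cell type alone, 2-sided, Benjamini-Hochberg adjustment, threshold 0.05. The standard error is the log2 fold change over the square root of F. The test was tested on simulated data. DESeq2 1.42.0, other scalings and filters, a replicate term and leaving out each library were alternatives. Exact intervals came from scipy 1.17.1. With 2 libraries against 2, an exact permutation test cannot go below 0.333, so none was run.

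The members, the lists and the settings were chosen with earlier results of these data known. The named miRNAs are all members, the 5 nearest in profile to miR-193b-3p and to miR-365-3p (log2 RPM, prior count 2), and list members. Of each list, up to 4 were eligible by reads; miR-196a-5p and miR-455-3p were named after their values were seen.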

Additional observations from a re-analysis of the deposited data

How the results depend on the processing

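Over the 13 other settings, the log2 fold change of miR-193b-3p ranged from -4.34 to -2.04, that of miR-193b-5p from -8.70 (without basal replicate 2, where the remaining basal library has 0 reads and the size rests on the prior count) to -3.33, that of miR-193a-3p from 1.21 to 3.37 and that of miR-193a-5p from 1.13 to 3.51, with no change of sign, while miR-365-3p ranged from -2.88 to 0.04. The cause of the differences was not tested. The number of miRNAs called, 15 as reported, was 2 with library totals alone, 3 with scaling to the Cali reads, 5 with a mean of at least 10 RPM, 33 in DESeq2 and 23 with the replicate block, and 9 to 61 without 1 library. The lowest was without basal replicate 1, and 27 were called without luminal replicate 2. Scaling to the Cali reads moved the median of all miRNAs to 1.99, library totals alone to 0.56 and upper-quartile factors to 0.31. Without 1 library, a group of 1 is assumed to vary like the other group. Members called, 1 as reported, were 0 with library totals alone or the Cali reads, 2 in DESeq2, and 1 to 2 without 1 library (2 without luminal replicate 1). The members' median, -1.19 as reported, was 0.042 with the Cali reads and -2.88 to -0.37 without 1 library, each time the value of miR-365-3p. The log2 ratio of miR-193b-3p to miR-193a-3p, basal minus luminal, was -5.14 and ranged from -5.57 to -4.71 without 1 library, and that of miR-193b-3p to miR-365-3p was -2.18 and ranged from -3.10 to -1.27. The 5p share of Mir193a differed by 0.916 percentage points (-10.6 to 12.5 without 1 library) and that of Mir193b by -0.700 (-1.65 to 0.253), so neither difference has a settled sign. The labels do not say whether equal replicate numbers mark a shared origin, and with 2 pairs this cannot be settled from the data. Deviations of the equally numbered libraries correlated at 0.153, and with the replicate block miR-193b-3p had a log2 fold change of -3.70 and was still called. Depth limits miR-193b-5p, the miR-193a arms in luminal libraries and miR-365-2-5p.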
